A study of Homo sapiens with 6 samples.

Results

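EGR1, FOS, CCN2 and DUSP6 are genes that cells switch on within minutes to a few hours of a growth factor, serum, stress or mechanical signal. Their expression is described here in Flp-in HEK293, a line derived from human embryonic kidney that accepts a construct at one prepared site in its genome. The 4 genes were chosen by symbol, through the platform annotation of an array table, with their values in the same arrays already known. They account for 7 of the 53617 rows of the table and for 4 of the 14884 symbols it names. EGR1, FOS and CCN2 (older name CTGF) have 2 rows each and DUSP6 has 1. All rows are given, and the row with the highest mean stands for the gene. No threshold was part of the choice and no filter on low values was applied.

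The 6 samples form 2 groups of 3 arrays. One group stably expressed TDNC1, which the labels do not spell out, and the control group stably expressed a random RNA. Both constructs were inducible (Flp-In T-Rex kit), and the labels do not say whether the inducer was added. All cells grew in high-glucose DMEM with fetal bovine serum, with Zeocin and blasticidin at first and Hygromycin in place of Zeocin after transfection, and the RNA came from pooled stable colonies. Arrays are numbered 1 to 3 as biological replicates within each group; separate cultures are not mentioned, nor what a shared number marks. The spread between arrays can therefore be partly technical. Values are log2 expression from Affymetrix Human Gene 2.0 ST arrays, so 1 unit is a doubling.

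Immediate early genes need no new protein to be transcribed. Growth factor receptors activate RAS and the kinases RAF, MEK and ERK, and ERK phosphorylates ternary complex factors such as ELK1, which act with SRF at CArG boxes of EGR1 and FOS. EGR1 is a zinc finger transcription factor and FOS a partner of JUN proteins in AP-1. DUSP6 is a cytosolic phosphatase that removes the activating phosphates of ERK and so closes a feedback loop. CCN2 is a secreted matricellular protein, transcribed through YAP with TEAD factors, through SRF, and in response to TGF-beta. Their transcripts are short-lived, so their levels follow recent signalling.

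The promoters of the 3 genes that held a motif of these pathways are printed, since the genes share a label but only in part their motifs. All 4 genes were matched in the RefSeq promoter table (GRCh38.p14), and the 250 bases before each transcription start were searched on both strands for 6 motifs. These were the CArG box of SRF, TGACGT (the core of the CRE bound by CREB and ATF proteins), GGAATG (TEAD), CCGGAA (ETS factors), TGANTCA (AP-1) and GCGNGGGCG (EGR factors). A palindromic CRE counts as 2 overlapping matches, and the TEAD and ETS motifs share bases and can overlap. Capitals mark the matches in the EGR1 promoter (chr5:138465229-138465478, plus strand), the FOS promoter (chr14:75278578-75278827, plus strand) and the CCN2 promoter (chr6:131951373-131951622, minus strand).
EGR1: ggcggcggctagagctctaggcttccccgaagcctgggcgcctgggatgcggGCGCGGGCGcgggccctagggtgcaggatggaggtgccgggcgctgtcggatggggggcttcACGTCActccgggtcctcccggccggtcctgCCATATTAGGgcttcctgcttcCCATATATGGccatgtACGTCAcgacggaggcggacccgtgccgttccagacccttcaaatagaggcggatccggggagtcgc
FOS: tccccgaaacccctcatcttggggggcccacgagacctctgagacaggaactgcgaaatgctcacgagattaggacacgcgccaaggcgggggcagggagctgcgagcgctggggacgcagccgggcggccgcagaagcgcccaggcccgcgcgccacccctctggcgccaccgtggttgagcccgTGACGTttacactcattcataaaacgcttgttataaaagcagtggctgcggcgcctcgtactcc
CCN2: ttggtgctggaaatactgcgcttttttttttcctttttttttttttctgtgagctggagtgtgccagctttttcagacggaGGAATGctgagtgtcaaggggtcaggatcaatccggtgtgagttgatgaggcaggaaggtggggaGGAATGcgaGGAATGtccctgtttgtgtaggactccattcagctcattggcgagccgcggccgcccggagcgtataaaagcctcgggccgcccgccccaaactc
The EGR1 window held 2 CArG boxes, 2 CRE cores and 1 EGR motif. At least 1 CArG box was found in 1.14% of the 27303 windows of the same length, and 2 or more in 0.033% (9 windows). CRE cores occurred in 7.42% of windows, with 2 or more in 2.07%, and the EGR motif in 8.25%. The FOS window held 1 CRE core, the motif it shared with EGR1, and no CArG box. Bases further upstream were not searched. The CCN2 window held 3 TEAD motifs, against at least 1 in 11.9% and 3 or more in 0.0952% (26 windows). The DUSP6 window (chr12:89352502-89352751, minus strand) held none of the 6, so these letters are not in those 250 bases; the ETS motif was found in 14.8% of windows and the AP-1 motif in 6.6%. A match is a description of the letters and does not show binding.

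EGR1 separated the arrays by their number more than by their group. Its brightest row stood at 6.79, 6.84 and 9.13 in TDNC1 arrays 1, 2 and 3, and at 7.51, 7.50 and 9.08 in control arrays 1, 2 and 3. Array 3 was the highest of each group, by 2.31 over the mean of arrays 1 and 2 in TDNC1 (4.97-fold) and by 1.58 in the control (2.99-fold). Below the pair of arrays numbered 3, which differed by 0.05, came the control arrays 1 and 2 and then the TDNC1 arrays 1 and 2. TDNC1 minus control over those pairs was -0.69, where the arrays within a pair differed by 0.04 in TDNC1 and by 0.01 in the control. The second row of EGR1 was dimmer and showed the step of array 3 again, at 5.01, 5.12 and 6.35 in TDNC1 against 5.21, 5.20 and 6.55 in the control. In bulk RNA a change in the number of expressing cells and a change in RNA per cell cannot be told apart.

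FOS did not share this pattern, although the label of the gene group puts it beside EGR1. Its brightest row stood at 5.98, 5.93 and 6.27 in TDNC1 against 6.10, 5.97 and 6.09 in the control. All 6 values lie between 5.93 and 6.27, and control array 3 lies between the other control arrays. Array 3 exceeded the mean of arrays 1 and 2 by 0.32 in TDNC1 and by 0.06 in the control. The second row disagreed with it in the control, where array 3 was the lowest at 5.60 against 5.99 and 5.92. In TDNC1 that row stood at 5.67, 5.63 and 5.73.

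CCN2 was high in the arrays numbered 3 and nearly equal between the groups elsewhere. Its brightest row stood at 5.84, 5.70 and 7.31 in TDNC1 against 5.78, 5.67 and 7.03 in the control. The excess of array 3 was 1.54 in TDNC1 (2.90-fold) and 1.31 in the control (2.47-fold). The other 4 arrays lay between 5.67 and 5.84, with the groups interleaved. The second CCN2 row, between 1.90 and 2.75, stayed under the lower quartile in all arrays (3.77 to 3.84). Its array 3 differences were 0.31 in TDNC1 against 0.30 in the control, where arrays 1 and 2 of the control alone differed by 0.71.

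DUSP6 differed from CCN2 in that the groups separated outside array 3. It stood at 6.42, 6.38 and 7.46 in TDNC1 against 7.10, 7.08 and 7.56 in the control. The excess of array 3 was 1.07 in TDNC1 (2.09-fold) and 0.47 in the control (1.39-fold). The arrays numbered 3 were the highest of the 6, with TDNC1 minus control of -0.10. Control arrays 1 and 2 came next and TDNC1 arrays 1 and 2 last, a difference of -0.69, against 0.04 and 0.02 between the arrays of each pair.

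**Figure D1:**
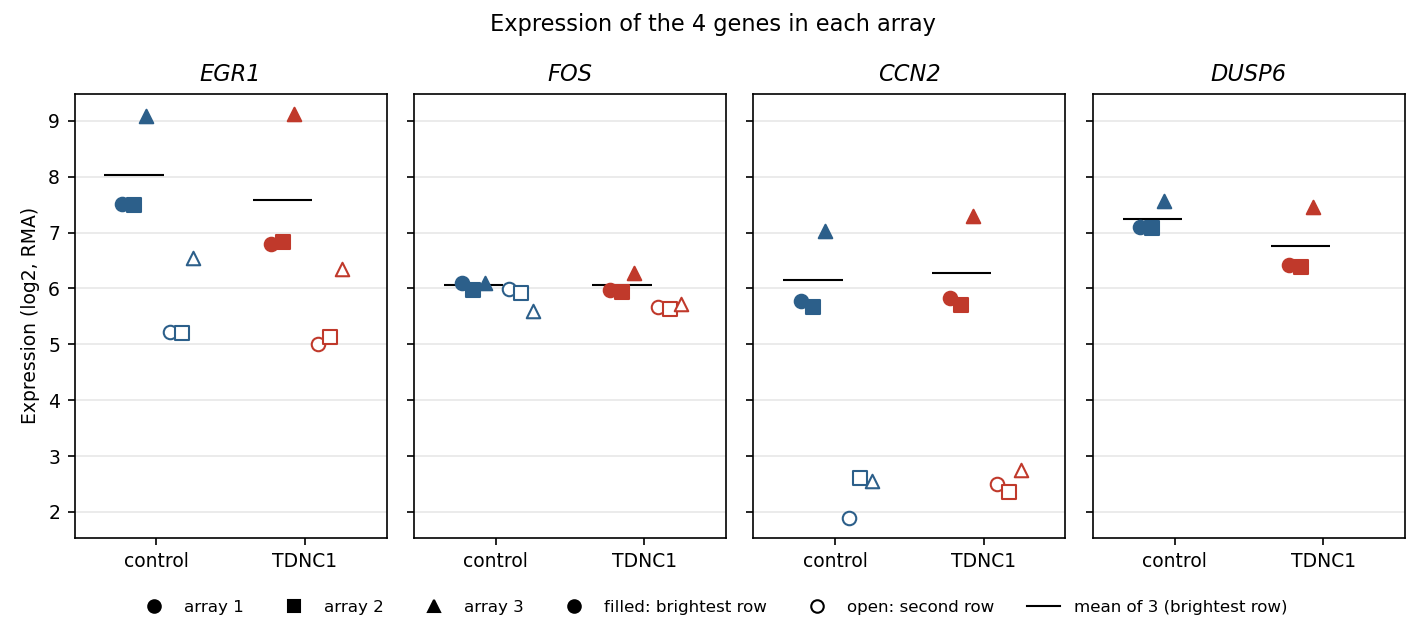
Expression (log2, RMA) of EGR1, FOS, CCN2 and DUSP6 in each array, with arrays 1, 2 and 3 as circles, squares and triangles, filled for the brightest row and open for the second row; lines are means of 3 arrays of the brightest row. The triangles of EGR1, CCN2 and DUSP6 lie above the other arrays of their group, for EGR1 at 9.13 and 9.08, while those of FOS lie at 6.27 and 6.09.

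Set side by side over both groups, the difference of array 3 from arrays 1 and 2 was 1.95 for EGR1 (limma SE 0.17, group in the model), 1.42 for CCN2 (SE 0.11), 0.77 for DUSP6 (SE 0.15) and 0.19 for FOS (SE 0.10). These values chose the genes, so they are given with no test. In the fit over all rows, 0 of 53617 rows passed limma's test for this difference after Benjamini-Hochberg adjustment (0%, smallest adjusted p = 0.115), and 5145 had an unadjusted p under 0.05. Array 3 exceeded the mean of arrays 1 and 2 by 1 or more in both groups in 36 rows (0.0671%). Among the brightest rows of the named symbols these were the rows of EGR1 and CCN2. Over the whole table, array 3 of each group lay further from arrays 1 and 2 than these lay from each other. A shared direction was weak: the deviations of the 2 arrays numbered 3 from their group means correlated at 0.05. Their root mean square shift from the gene means, over the brightest rows, was 0.157 in TDNC1 and 0.160 in the control. In the other arrays it ran from 0.153 to 0.188. Whether the number marks a batch or a state of the cells cannot be told apart. The median absolute difference between control array 3 and the other control arrays was 0.162 and 0.160, against 0.136 between those 2; in TDNC1 it was 0.188 and 0.177, against 0.134, and the arrays numbered 3 differed by 0.136 from each other.

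Pearson's r over the 6 arrays, given as a description because the arrays share the step at number 3, was 0.94 for EGR1 with CCN2 and 0.93 for EGR1 with DUSP6. It was 0.76 for CCN2 with DUSP6, and FOS, despite its small range, had 0.83 with EGR1, 0.83 with CCN2 and 0.77 with DUSP6. The genes nearest to each were found by the root mean square (RMS) difference of values centred on the gene mean, over the 6 arrays and the brightest rows of all symbols. EGR1 was nearest to SERTAD1, a transcriptional co-regulator, at 6.99, 7.07 and 8.89 in TDNC1 against 7.73, 7.78 and 8.62 in the control (RMS difference 0.29, r = 0.99). CCN2 and SMAD6, an inhibitor of BMP signalling, followed with RMS differences of 0.40 and 0.44. CCN2 was nearest to GLIPR1 (0.27), KLF10, a TGF-beta-inducible early factor (0.27), and TUFT1 (0.31). DUSP6 was nearest to IFITM2, an interferon-induced membrane protein (0.05), EMC10, a subunit of a membrane protein insertion complex (0.05), and CNN2, the actin-binding calponin 2 (0.06). FOS, which varied little, was nearest to NELL1, LCAT and SHISA7 (0.02 to 0.03). The mean of the 4 genes was most like DUSP1, followed by TUFT1, HEXIM1, GLIPR1 and MYADM (0.11 to 0.15).

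Other immediate early factors, taken from a list that leaves out the 4 genes, mostly had their highest values in array 3 as well. Of 32 genes on the list 22 were measured, and 13 of them (59.1%) were higher in array 3 at an unadjusted p under 0.05 in limma, 0 lower. Over all rows 5.14% were higher and 4.46% lower by that rule, and 5.97% of the brightest rows of named symbols were higher. None passed over all rows, with adjusted p of 0.465 or more. The median difference was 0.37, against -0.01 over all rows. Array 3 was the highest of its group in both groups for 15 of the 22 (68.2%), against 14.4% of all rows and 18.2% of the brightest rows of named symbols. The list was drawn up with earlier results of these arrays known, so the count is not independent evidence of its direction.

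Within the EGR family, EGR3 stood at 5.72, 5.92 and 6.08 in TDNC1 against 5.82, 5.78 and 6.36 in the control, a difference of 0.41 (SE 0.12) for array 3. EGR4 had 0.05 (SE 0.10), and EGR2 is unnamed here. Of the co-repressors that bind EGR proteins, NAB2 stood at 6.07, 6.17 and 6.75 in TDNC1 against 5.25, 5.73 and 6.63 in the control (0.88, SE 0.18), while NAB1 had -0.06 (SE 0.10). NAB2 thus had its step in the same arrays as EGR1 and NAB1 did not.

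Among the AP-1 relatives of FOS, FOSL1, JUNB, FOSB, JUND and FOSL2 had larger differences for array 3 than FOS, while JUN had the same 0.19; these gaps were not tested. FOSL1, which encodes FRA1, stood at 6.43, 6.48 and 7.66 in TDNC1 against 6.93, 7.28 and 7.72 in the control (0.91, SE 0.17). JUNB stood at 6.92, 6.86 and 7.67 and at 7.32, 7.20 and 7.79 (0.66, SE 0.10). For both, array 3 was the highest of each group, and TDNC1 arrays 1 and 2 were the lowest of the 6. FOSB had a difference of 0.59 (SE 0.14), JUND 0.54 (SE 0.09), FOSL2 0.42 (SE 0.11) and JUN 0.19 (SE 0.12), each over both groups. In limma the adjusted p was 0.465 for FOSL1, JUNB, FOSB, JUND and FOSL2 and 0.664 for JUN.

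Elsewhere on the list, KLF10 stood at 7.93, 7.88 and 8.75 in TDNC1 against 7.73, 7.61 and 8.57 in the control (0.87, SE 0.09). The stress-induced factor ATF3 had a difference of 0.62 (SE 0.11). MYC, the growth-promoting transcription factor, followed another order: it stood at 9.35, 9.43 and 9.30 in TDNC1 against 8.86, 8.97 and 9.48 in the control. Its control array 3 was the highest of its group, while its TDNC1 array 3 was the lowest. MAFF and NAB1, named for their small p between the groups, had TDNC1 minus control differences of -0.16 (SE 0.12) and 0.13 (SE 0.10) over all arrays.

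**Figure D2:**
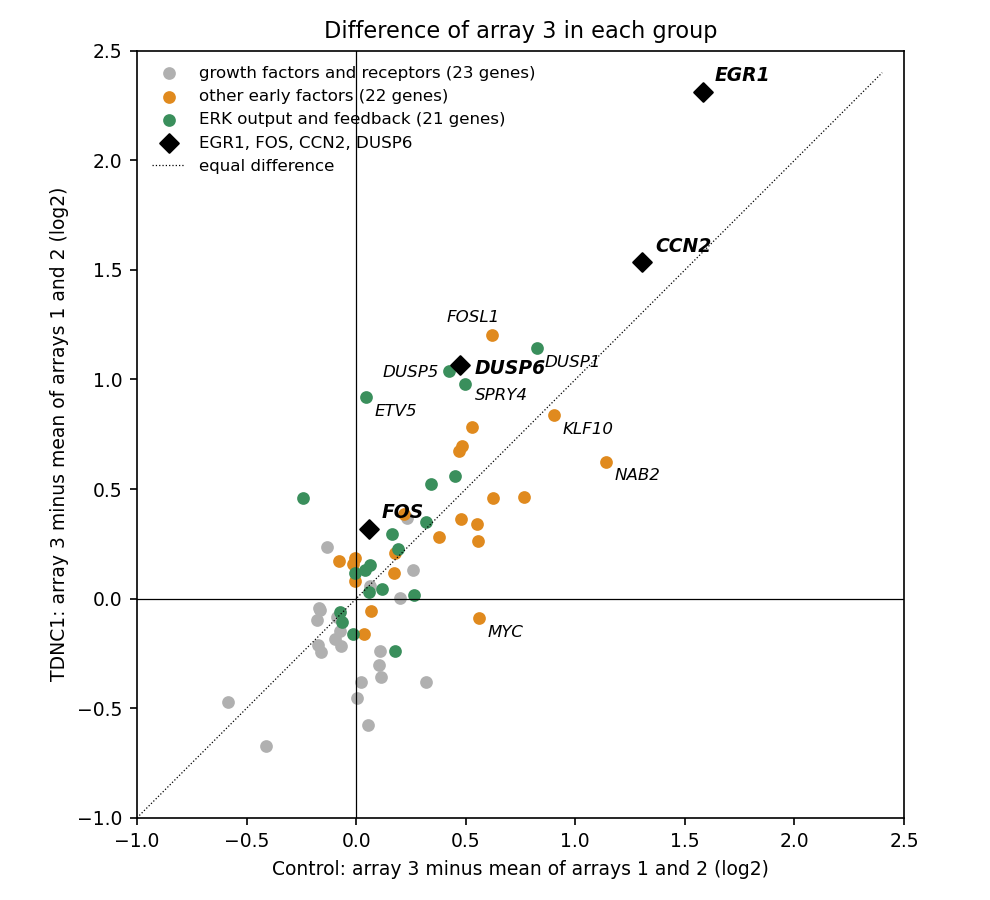
Each point is 1 gene; the axes give array 3 minus the mean of arrays 1 and 2 (log2) in the control (horizontal) and in TDNC1 (vertical), which share no arrays. EGR1 lies at 1.58 and 2.31 and CCN2 at 1.31 and 1.54, beyond the other early factors, the ERK output genes and the growth factors and receptors, and FOS lies near the origin at 0.06 and 0.32.

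Genes that report ERK activity or restrain it, the class to which DUSP6 belongs, were higher in array 3 in part. Of 26 listed genes other than DUSP6, 21 were measured. In array 3, 7 (33.3%) were higher at an unadjusted p under 0.05 and 0 lower, against 5.14% higher over all rows, and the median difference was 0.14. Only 3 were higher when TDNC1 array 3 was left out. Members were uneven: the nuclear phosphatase gene DUSP1 had a difference of 0.98 (SE 0.11) and DUSP5, which acts on ERK in the nucleus, 0.73 (SE 0.17). DUSP10, which acts on p38 and JNK, had 0.43 (SE 0.14). The other MAP kinase phosphatase genes DUSP2, DUSP4, DUSP7, DUSP8, DUSP9 and DUSP16 lay between -0.09 and 0.14. Of the Sprouty inhibitors of receptor signalling, SPRY4 had 0.74 (SE 0.14), SPRY2 0.50 (SE 0.09) and SPRY3 -0.07 (SE 0.11). SPRY1 and the SPRED genes are unnamed here.

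DUSP1 stood at 8.31, 8.44 and 9.52 in TDNC1 against 8.84, 8.86 and 9.67 in the control. SPRY4 stood at 6.27, 6.26 and 7.25 and at 6.54, 6.77 and 7.15. Both follow the order of EGR1 and DUSP6, with the arrays numbered 3 highest and TDNC1 arrays 1 and 2 lowest.

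Some cytoskeletal targets of SRF and its cofactor MRTF were higher in array 3. Of 21 listed, 12 were measured, and 4 (33.3%) were higher in array 3 at an unadjusted p under 0.05, with 0 lower and a median of 0.16, against 5.14% of all rows higher and 4.46% lower. These were CNN2 (0.71, SE 0.16), the focal adhesion genes ZYX (0.56, SE 0.14) and VCL (0.36, SE 0.12), and FHL2 (0.26, SE 0.11). SRF itself stood at 9.23, 9.22 and 10.03 in TDNC1 against 9.57, 9.60 and 10.21 in the control (0.71, SE 0.09, limma adjusted p = 0.465).

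The other measured YAP targets had smaller differences than CCN2, in both directions. Of 22 listed, 12 were measured, and 1 was higher (FJX1, 0.29, SE 0.08) and 1 lower (MYOF, -0.57, SE 0.21) in array 3 at an unadjusted p under 0.05, with a median of -0.08. At 1 of 12 (8.33%) this is close to the 5.14% of all rows that were higher and the 4.46% that were lower. ANKRD1, a frequent companion of CCN2 as a YAP target, had 0.24 (SE 0.11), AXL -0.19 (SE 0.09) and CRIM1 -0.23 (SE 0.10). The count of higher genes moved between 0 and 2 as single arrays were left out: 0 without TDNC1 array 3 or control array 3, and 2 without control array 2. CCN1, the relative most often induced with CCN2, is unnamed here. The measured relatives CCN3, CCN4, CCN5 and CCN6 had differences of -0.05, 0.09, -0.16 and 0.12, all smaller than that of CCN2. Of 16 measured Hippo pathway components and TEAD factors, 0 were higher and 3 lower by the same rule, against 5.14% and 4.46% of all rows. The 3 were the atypical cadherin genes FAT1 (-0.31, SE 0.10) and FAT4 (-0.29, SE 0.10) and the scaffold gene WWC1 (-0.28, SE 0.10).

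Upstream in the pathway, the 13 measured members of the ERK cascade had a median difference of -0.005 for array 3, with 2 higher (SRF, and the RAF kinase gene ARAF at 0.38, SE 0.14) and 1 lower. That one was SOS1, which loads RAS with GTP, at -0.51 (SE 0.09). Of 23 measured growth factors and receptors 1 was higher (4.35%) and 2 were lower. Over all rows 5.14% were higher and 4.46% lower, so the counts of growth factors and receptors are near the background, and those of the cascade are of 3 genes in all. The EGF-like ligand gene HBEGF had 0.30 (SE 0.11), and the FGF ligand genes FGF2 and FGF9 had -0.54 (SE 0.10) and -0.53 (SE 0.09).

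**Figure D3:**
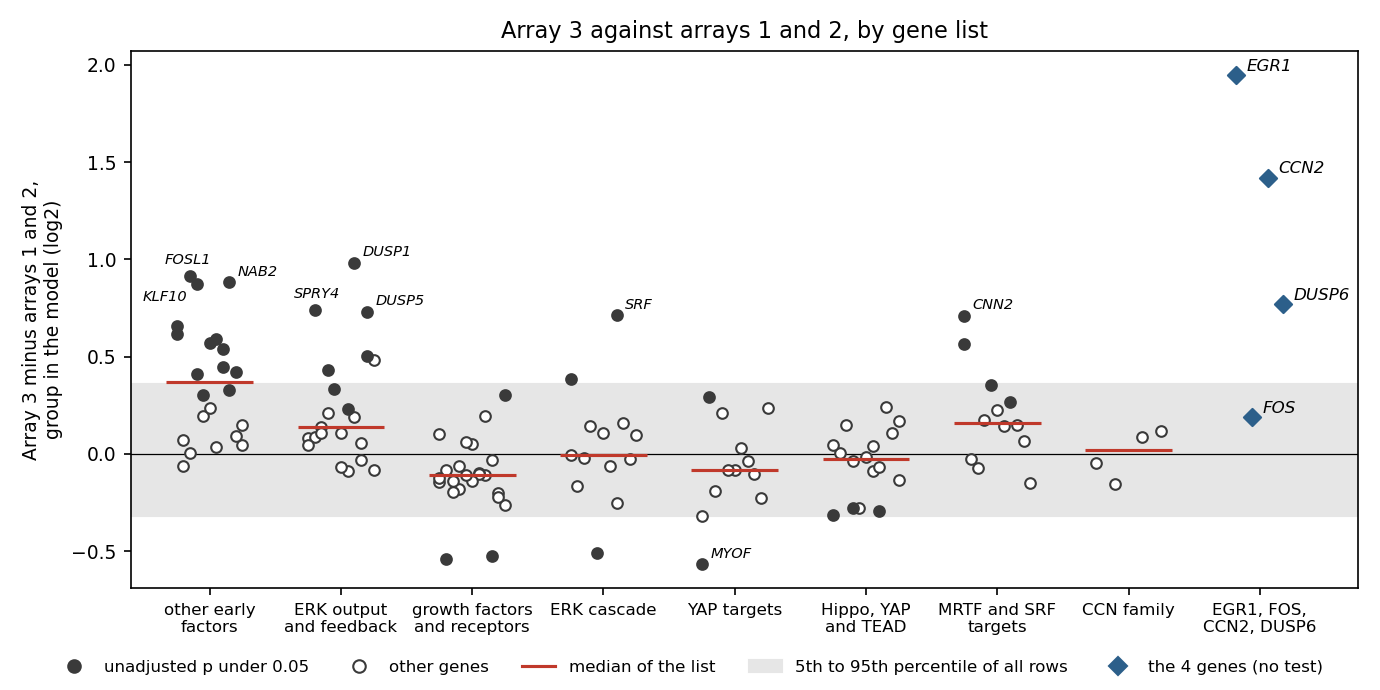
Difference of array 3 from arrays 1 and 2 (log2, group in the model) for each gene of 8 lists and for the 4 genes (diamonds); filled circles have an unadjusted p under 0.05, red lines are list medians and grey is the 5th to 95th percentile of all rows. The other early factors have a median of 0.37 and the ERK output genes of 0.14, while growth factors and receptors have -0.11.

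Cell identity markers were looked at beside the step of array 3. Of the 8 genes listed for HEK293 cells 5 were measured, with VIM between 8.62 and 8.76 and KRT18 between 9.07 and 9.34, and 0 of the 5 differed in array 3 at an unadjusted p under 0.05. Between the groups, the kidney developmental factor PAX2 was the 1 of the 5 past that threshold, at 6.49, 6.26 and 6.22 in TDNC1 against 5.87, 5.78 and 6.09 in the control (0.41, SE 0.12, limma adjusted p = 0.631), and its part in the results was not tested. Over all rows 3.74% were higher and 3.96% lower between the groups at that threshold. The summed HEK293 marker level was 10.24 to 10.33 in TDNC1 and 10.27 to 10.36 in the control. NEFL, NEFM and INA are unnamed here. The fibroblast markers DCN, LUM and THY1 (3 of 7 measured) and the monocyte marker CD14 (1 of 6 blood markers) stayed at 5.97 or below, and the log2 of the summed fibroblast level was 6.06 to 6.19 in the arrays numbered 3 and 5.89 to 6.35 in the others. Of the 4 measured epithelial markers of 6, EPCAM had a difference of -0.29 (SE 0.09) for array 3 and KRT19 of 0.28 (SE 0.10). Both had an unadjusted p under 0.05, and KRT5 and KRT14 did not pass it. Over all rows 5.14% were higher and 4.46% lower in array 3 by that rule. The summed level of the 4 epithelial markers was 10.21 to 10.25 in the arrays numbered 3 and 10.38 to 10.39 in the others. It was 10.25 to 10.39 in TDNC1 against 10.21 to 10.39 in the control, and its part in the results was not tested.

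The study's own question is the effect of TDNC1 expression. Over all 6 arrays EGR1 averaged 7.59 ± 1.34 with TDNC1 and 8.03 ± 0.91 with the random RNA (SD, n = 3 each), a difference of -0.44 (SE 0.71). FOS averaged 6.06 ± 0.19 with TDNC1 and 6.05 ± 0.07 with the random RNA (SD, n = 3 each), a difference of 0.004 (SE 0.12). CCN2 averaged 6.28 ± 0.89 with TDNC1 and 6.16 ± 0.76 with the random RNA (SD, n = 3 each), a difference of 0.12 (SE 0.51). DUSP6 averaged 6.75 ± 0.62 with TDNC1 and 7.25 ± 0.27 with the random RNA (SD, n = 3 each), a difference of -0.50 (SE 0.30). Each difference is smaller than the SD of at least 1 group, and the groups overlap for every gene. None of the 4 was among the rows called by limma over the table, where 1 of 53617 rows passed (0.00187%), the long noncoding RNA LOC646736. These arrays served in choosing the genes, so nothing is read from that count.

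Within the arrays numbered 1 and 2, which sets 2 arrays against 2, EGR1 and DUSP6 were lower in TDNC1, with TDNC1 minus control of -0.69 (SE 0.09) each. This is 0.621 and 0.619 times the control level. CCN2 and FOS had differences of 0.05 (SE 0.11) and -0.08 (SE 0.10). Between the arrays numbered 3, TDNC1 minus control was 0.05 for EGR1, -0.10 for DUSP6, 0.28 for CCN2 and 0.18 for FOS, each from 1 array per group. The step of array 3 was thus larger in TDNC1 than in the control by 0.73 for EGR1 (SE 0.16) and 0.59 for DUSP6 (SE 0.16), against 0.23 for CCN2 (SE 0.19) and 0.26 for FOS (SE 0.18). The second row of EGR1 did not share this, with -0.14 (SE 0.10) in arrays 1 and 2 and -0.06 (SE 0.17) for the unequal step. Over all rows the unequal step was called in 0 rows by limma (0%, 5117 rows at an unadjusted p under 0.05), and its spread comes from arrays 1 and 2 alone. A p that misses the threshold there does not show equal steps. The step of array 3 and the group difference in arrays 1 and 2 use the same 4 arrays, so neither supports the other. Between the groups in arrays 1 and 2, 1 row was called (0.00187%).

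Several ERK output genes had the same order in arrays 1 and 2. Of the 21 measured, 6 (28.6%) were lower in TDNC1 there at an unadjusted p under 0.05 and 1 higher, against 8.09% lower and 6.9% higher over all rows and 6.58% lower among the brightest rows of named symbols. The 6 were ETV5 (-0.62, SE 0.12), DUSP5 (-0.51, SE 0.13), DUSP1 (-0.47, SE 0.10), SPRY4 (-0.39, SE 0.12), the chromatin protein gene HMGA1 (-0.28, SE 0.09) and ETV1 (-0.25, SE 0.10). ETV5 and ETV1, ETS factors of the group that ERK signalling induces, were named after their values were seen. DUSP9 was the higher one, at 0.27 (SE 0.10). With all 6 arrays 0 were lower, against 3.96% of all rows, and DUSP9 was the 1 higher gene, between 6.91 and 7.07 in TDNC1 and between 6.64 and 6.73 in the control (0.31, SE 0.09, limma adjusted p = 0.631). None was called over all rows in either fit.

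ETV5 had a step in TDNC1 and little in the control. It stood at 5.82, 5.73 and 6.70 in TDNC1 against 6.30, 6.49 and 6.44 in the control. Its step of array 3 was 0.92 in TDNC1 against 0.05 in the control, unequal by 0.87 (limma, adjusted p = 0.471). At an unadjusted p under 0.05 the step was larger in TDNC1 for 3 of the 21 genes (ETV5, DUSP5 and the cytokine gene LIF, named after its values were seen) and smaller for 0, against 5.45% and 4.09% of all rows.

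Some growth factors and receptors were higher in TDNC1, while the list as a whole had a median difference of 0.09. With all 6 arrays, 7 of the 23 measured (30.4%) were higher in TDNC1 at an unadjusted p under 0.05 and 1 was lower, against 3.74% and 3.96% of all rows and 4.59% higher among the brightest rows. In arrays 1 and 2 there were 8 higher (34.8%) and 1 lower, against 6.9% and 8.09% of all rows and 9.66% higher among the brightest rows. With all arrays but TDNC1 array 1, or all but TDNC1 array 2, 4 were higher. None was called over all rows (limma, adjusted p = 0.631 for the 8 genes). PDGFA, a ligand of the PDGF receptors, stood at 7.59, 7.49 and 7.16 in TDNC1 against 6.51, 6.65 and 6.90 in the control, a difference of 0.72 (SE 0.15). The EGF receptor gene EGFR, named after its values were seen, stood at 7.10, 7.01 and 6.67 and at 6.54, 6.46 and 6.52 (0.42, SE 0.13). Its relative ERBB4 stood at 7.83, 7.85 and 7.53 and at 7.26, 7.34 and 7.40 (0.40, SE 0.12).

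In each of these 3 genes TDNC1 array 3 was the lowest of its group and still above the controls. This is a description only, since PDGFA and ERBB4 were named for their small p between the groups and EGFR after its values were seen. PDGFB had 0.35 (SE 0.09). VEGFA, ERBB3 and INSR, also named after their values were seen, had 0.37 (SE 0.13), 0.49 (SE 0.17) and 0.44 (SE 0.14). In arrays 1 and 2 these were 0.53, 0.70 and 0.59, and between the arrays numbered 3 they were 0.06, 0.07 and 0.14. For PDGFB the same 2 differences were 0.31 and 0.43. IGF1 was the lower gene, at -0.37 (SE 0.10).

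Each remaining list had 2 or fewer genes past that threshold with all arrays. Of the other early factors 0 of 22 passed it, and in arrays 1 and 2 there were 2 higher (MYC, 0.47, and NAB2, 0.63) and 3 lower (FOSL1, -0.65, JUNB, -0.37, and EGR4, -0.30). These shares, 9.09% and 13.6%, are near the 6.9% of all rows that were higher and the 8.09% that were lower there. Of the ERK cascade 0 of 13 passed an unadjusted p under 0.05 with all arrays. In arrays 1 and 2, 3 of the 13 were lower and 1 higher, to be read against the same shares of all rows: ARAF had -0.55 (SE 0.11), the adaptor gene SHC1 -0.37 (SE 0.11), SRF -0.36 (SE 0.09) and MAPK3, which encodes ERK1, 0.28 (SE 0.09). MAP2K1, which encodes MEK1, had 0.10 (SE 0.09) with all arrays. Among YAP targets, ANKRD1 was at 4.90, 4.76 and 5.13 in TDNC1 against 5.31, 5.53 and 5.59 in the control (-0.55, SE 0.13), and ARHGEF17 had 0.38 (SE 0.15). ANKRD1 was named for the smallest p of its list between the groups, so the gap between its groups is a description only. CCN3 was higher in TDNC1, at 6.68, 6.79 and 6.58 against 6.35, 6.22 and 6.34 (0.38, SE 0.10, limma adjusted p = 0.631). The tumour suppressor gene NF2 had 0.25 and its downstream partner MOB1B 0.29. CNN2 was at 9.34, 9.19 and 10.28 against 9.97, 10.07 and 10.43, with -0.76 (SE 0.11) in arrays 1 and 2, the order seen in DUSP6.

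**Figure D4:**
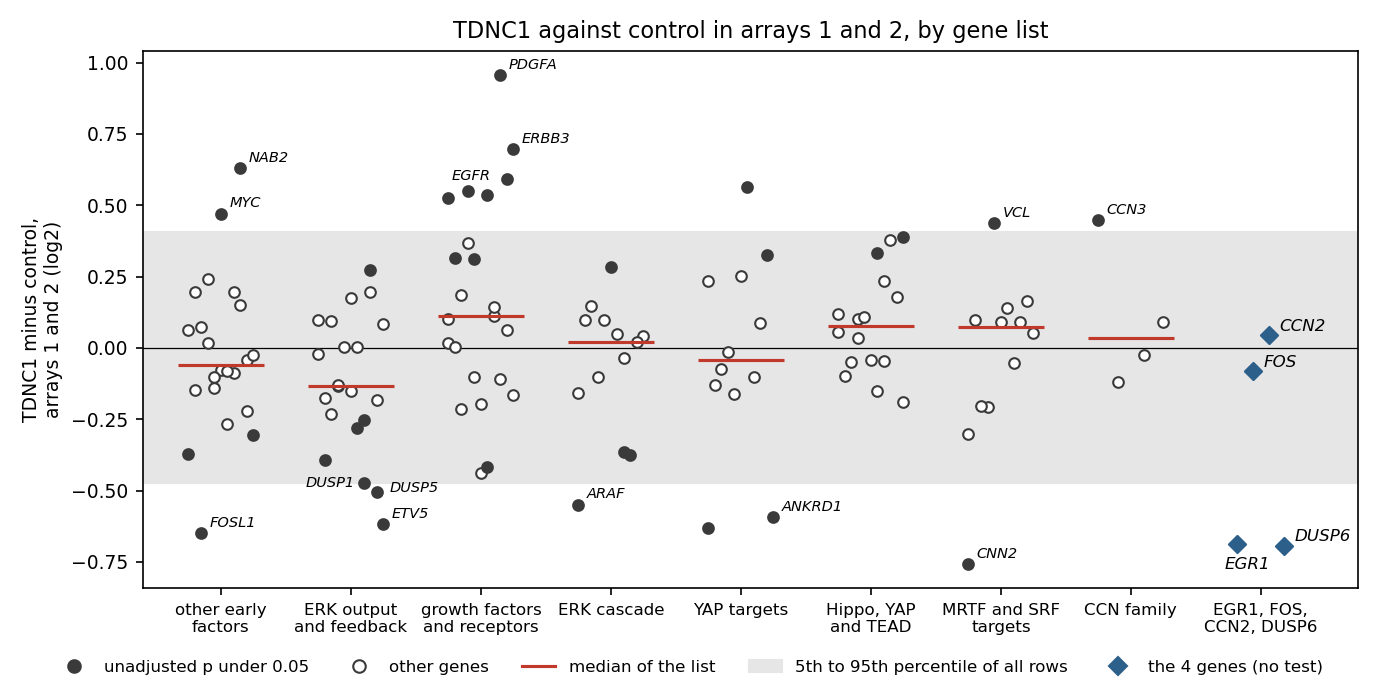
TDNC1 minus control in arrays 1 and 2 (log2) for each gene of 8 lists and for the 4 genes (diamonds); filled circles have an unadjusted p under 0.05, red lines are list medians and grey is the 5th to 95th percentile of all rows. EGR1 and DUSP6 lie at -0.69 each, with ETV5 at -0.62 and DUSP5 at -0.51 among the ERK output genes, while PDGFA lies at 0.96 among growth factors and receptors.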

How the data were processed

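Affymetrix Human Gene 2.0 ST arrays measured the total RNA of 6 samples. The deposited values are log2 expression, judged from their range (0.79 to 13.85), and the submitters' processing notes name RMA and Affymetrix Power Tools as what the authors used. The version and the build: not given in the sources used here. RMA equalises the arrays, which hides a shift shared by most transcripts and compresses differences of dim rows. Arrays have no sequencing depth; their number limits the precision. Array medians ran from 5.16 to 5.22, and no columns were identical.

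Of 53617 rows, 16098 had 1 symbol, updated through the GRCh38.p14 gene table (all matched), and 37519 are unnamed here. Groups came from sample titles. limma 3.58.1 in R 4.3.3 (lmFit, eBayes, two-sided) was fitted to all rows for TDNC1 against control, for array 3 against 1 and 2 with group as a term, and for their interaction, and was tested on simulated data. Calls were rows whose adjusted p (Benjamini-Hochberg) was under 0.05. Genes named were all rows of the 4 genes, the EGR, NAB, FOS, JUN, CCN, DUSP, Sprouty and SPRED families, up to 4 genes of each list with the smallest p in each of the first 2 fits, and the 3 nearest profiles. The 4 genes and the lists were chosen with earlier results of these data known. Alternatives covered moderation, array weights, scaling, dim rows, a replicate block and leaving out arrays.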

Additional observations from a re-analysis of the deposited data

How the results depend on the processing

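As single arrays were left out, the difference between the groups ranged from -1.21 to 0.08 for EGR1, from -0.10 to 0.07 for FOS, from -0.39 to 0.56 for CCN2 and from -0.85 to -0.31 for DUSP6. Over these the sign held for DUSP6 and not for the others. The step of array 3 kept its sign, ranging from 1.58 to 2.31 for EGR1, 0.0597 to 0.32 for FOS, 1.31 to 1.54 for CCN2 and 0.47 to 1.07 for DUSP6. With the mean over both rows of a gene it was 1.63 for EGR1, 0.026 for FOS and 0.86 for CCN2. Rows called between the groups ranged from 1 to 23 as single arrays were left out (23 without TDNC1 array 3, 2 without control array 3). For the step of array 3, 0 rows were called, but 1 with a trended, robust prior and 3 among rows above the median mean level; for the unequal step 53 rows were called with the trended, robust prior. ERK output genes lower in TDNC1 numbered 0, but 1 with the trended, robust prior, 6 without both arrays numbered 3, 2 with array weights, and from 0 to 6 as single arrays were left out. Growth factor and receptor genes higher in TDNC1 ranged from 4 to 8, early factors higher in array 3 from 9 to 13, ERK output genes from 3 to 7 and YAP targets from 0 to 2. Why these counts moved was not tested. The deviations of same-numbered arrays from their group means had correlations from -0.001 to 0.05 over all rows, too low to pair the samples by number, and 3 of 6 arrays correlated best with their own number. The arrays numbered 3 gave the 0.05, although their median absolute difference from each other (0.136) was smaller than from their own groups (0.160 to 0.188). With the replicate number as a block, 1 row was called between the groups, as without it, and 1 ERK output gene was lower.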
